A study of Homo sapiens with 8 samples.

Results

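The 6 genes described here encode insulin and IGF receptors and the adaptors that bind them: INSR, IGF1R, IGF2R, IRS1, IRS2 and GRB10. They were chosen by name from the 18638 gene models of the deposited count tables, and all 6 were found in the tables of both cell lines. The names were picked from among genes whose values in these libraries were already known, above all the fall of IRS1 in HCT116, so their HCT116 values are given as a description with no p-value. The HCT116 calls of these genes by edgeR appear as counts beside the share of all genes called, and nothing is read from them. The DLD-1 p-values, and those of the other pathway genes, also follow a choice made with earlier results known. They describe these libraries and are not independent tests.

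Insulin and the insulin-like growth factors bind receptor tyrosine kinases at the cell surface. The activated receptors phosphorylate IRS proteins, which recruit PI3 kinase and so switch on AKT, mTOR and the restraint of FOXO factors. In epithelial and tumour cells the pathway is known for its part in growth, nutrient uptake and survival. INSR encodes the insulin receptor and IGF1R the receptor for IGF1. IGF2R encodes the cation-independent mannose 6-phosphate receptor, which carries IGF2 to lysosomes and has no kinase domain. IRS1 and IRS2 are the main docking adaptors, and GRB10 is an adaptor that binds the active receptors and restrains their signal.

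Nascent RNA had been collected by factory-seq, a method that treats isolated nuclei with DNase I and then releases transcription sites with a caspase mix. The study covers 2 human lines of colorectal cancer and 8 libraries, in 4 groups of 2. In DLD-1 cells the genotype field gives mAID-mClover-POLR2A with Tet-OsTIR1, that is a degron (mAID) and a fluorescent tag on RPB1, which is the catalytic core subunit of RNA polymerase II, and an inducible gene for the plant protein TIR1. They were compared as untreated controls and after 14 h of auxin, which destroys the tagged protein. HCT116 cells carried the degron on TOP2A, a DNA topoisomerase. They were compared as untreated TOP2A-mAID controls and as cells that are also labelled TOP2B-/-. For the TOP2B-/- libraries the titles read as control and the treatment field reads as 14 h of auxin, so genotype and auxin cannot be told apart in this comparison. Per the protocol, auxin was used at 500 µM after 24 h of doxycycline, the inducer of TIR1. The labels do not say whether control cells also received doxycycline. They mention sorting of G1 cells where applicable, without saying whether these libraries were sorted. The sources used here do not say how many clones stand behind each line.

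Total counts ran from 10739622 to 62626875 in DLD-1 and from 32129400 to 36491540 in HCT116. The background of each library was the median read density over 3095 genes, taken from the models of lowest density in controls of the opposite line and called silent genes here. Extended over all gene models, this background came to 2.25% and 9.05% of the total in the DLD-1 controls and to 39.5% and 59.8% after auxin. In HCT116 it came to 0.261% to 3.05%. Auxin is aimed at the tagged protein, whose level is not measured here. POLR2A was not called in DLD-1, at -0.78 on the log2 scale (SE 0.32, edgeR adjusted p = 0.0773). This does not show that its nascent RNA was unchanged. TOP2B fell by 0.50 on the log2 scale in the libraries labelled TOP2B-/- (edgeR adjusted p = 0.0269), from 185.7 and 191.7 to 134.6 and 131.6 CPM (counts per 1000000 counts of the library, after TMM scaling), so reads over TOP2B were still present in them. EPCAM, CDH1, KRT8 and KRT18, markers of epithelium, lay at 23.8 times the background or more in every library. Of the other 4 colon markers, CDX1 lay at 0.882 times the background or less in all 8 libraries. KRT20 and VIL1 lay at 0 to 2.23 and 1.04 to 3.16 times in HCT116, and after auxin in DLD-1 at 1.68 and 0.343 and at 2.35 and 1.59 times. CDX2 went from 78.5 and 71.5 CPM in the DLD-1 controls to 7.66 and 5.45 CPM after auxin, and lay at 23.5 times the background or more in HCT116. The summed level of the 8 colon epithelial markers was 5190 to 6803 CPM in the DLD-1 controls and 3608 to 5036 after auxin, and 3375 to 4244 and 2446 to 2753 in the 2 HCT116 groups. Of the 7 markers of other cell types, PTPRC, CD3E, COL1A2 and GFAP stayed at 1.93 times the background or less. In HCT116 COL1A1 lay at 53.8 to 1133 times the background, DES at 6.14 to 54.6 times and PECAM1 at 1.14 to 4.71 times. In DLD-1 PECAM1 lay at 4.80 and 2.48 times after auxin, while COL1A1 and DES stayed at 1.19 times or less. The summed level of these 7 was 3.95 and 17.3 CPM in the DLD-1 controls and 125.3 and 115.3 after auxin, against 30.3 to 48.5 in HCT116. Their part in the results below was not tested.

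Reads had been counted over whole gene models, introns included, so a long gene gathers many reads. On GRCh38, INSR spans chr19:7112255-7294000 on the minus strand, IGF1R spans chr15:98648539-98964530 on the plus strand, and IGF2R spans chr6:159969099-160106551 on the plus strand. IRS1 lies at chr2:226731317-226798790, IRS2 at chr13:109753837-109786567 and GRB10 at chr7:50590063-50793462, all on the minus strand. The counted lengths ran from 32.7 kb for IRS2 and 67.5 kb for IRS1 to 315.9 kb for IGF1R. No other deposited gene model overlaps any of the 6. RefSeq places non-coding RNAs within INSR, IGF1R (IRAIN among them), IGF2R (AIRN among them) and GRB10, and none within IRS1 or IRS2. The sources used here do not say whether counting used strand, so antisense RNA cannot be told apart from these 4 genes.

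The upstream sequences of 3 genes are shown because they carry the contrasts reported here. IRS1 and IRS2 are the adaptors whose levels correlated most closely across libraries, though IRS1 fell by more. The direction of IGF2R in DLD-1 turned after background subtraction with new scaling, and with library totals in place of TMM scaling. Each line holds the 250 bases before the RefSeq transcription start, on GRCh38.p14, read 5′ to 3′ on the strand of the gene. Capitals mark the GC box, GGGCGG or CCGCCC, and the E-box, CACGTG, which reads alike on both strands. IRS1 is taken from chr2:226799821-226800070 on the minus strand, IRS2 from chr13:109786584-109786833 on the minus strand and IGF2R from chr6:159968832-159969081 on the plus strand.
IRS1: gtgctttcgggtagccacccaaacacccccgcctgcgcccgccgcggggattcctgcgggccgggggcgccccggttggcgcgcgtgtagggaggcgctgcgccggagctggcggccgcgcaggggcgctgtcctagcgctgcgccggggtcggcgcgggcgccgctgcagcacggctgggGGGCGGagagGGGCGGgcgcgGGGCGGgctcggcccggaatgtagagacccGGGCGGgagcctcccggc
IRS2: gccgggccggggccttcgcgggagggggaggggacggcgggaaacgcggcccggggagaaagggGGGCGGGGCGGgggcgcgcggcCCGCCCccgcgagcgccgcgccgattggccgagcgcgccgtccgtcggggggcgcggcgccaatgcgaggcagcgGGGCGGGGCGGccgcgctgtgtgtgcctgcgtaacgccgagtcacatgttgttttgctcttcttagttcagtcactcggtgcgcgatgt
IGF2R: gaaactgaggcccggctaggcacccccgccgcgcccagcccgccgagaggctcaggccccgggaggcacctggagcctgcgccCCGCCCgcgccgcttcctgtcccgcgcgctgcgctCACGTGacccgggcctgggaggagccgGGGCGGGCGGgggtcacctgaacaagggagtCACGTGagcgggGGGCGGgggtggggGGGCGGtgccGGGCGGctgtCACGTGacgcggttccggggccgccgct

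All 6 genes matched the RefSeq table, with 10 upstream windows between them, of which GRB10 had 5 alternative starts. Counting overlapping matches separately, IRS1 held 4 GC boxes, IRS2 held 5 and IGF2R held 6. Of 35116 RefSeq windows of this length, 42.6% held at least 1 GC box and 7.63% held at least 4. The windows of INSR and IGF1R held 4 and 2. IGF2R also held 3 E-boxes, a number reached by 0.0797% of all windows, while 6.34% held at least 1 and no window of the other 5 genes did. The forkhead motif, TGTTTAC or GTAAACA, was in 2.98% of windows and in none of the 10. These matches describe the letters of the windows and are not sites of binding. The GC content of the 3 windows shown was 80.8%, 76.4% and 79.2%, against a median of 58% over all windows. The deposited model of IRS1 begins 1030 bases inside the RefSeq start, so reads from that stretch were not counted for it.

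Levels were compared between genes as CPM divided by the counted length in kb (RPKM), with libraries scaled by TMM within each cell line. In DLD-1 controls IGF2R had the highest level of the 6, at 5.40 ± 1.36 RPKM, followed by IRS1 at 3.41 ± 0.214 and GRB10 at 1.36 ± 0.159 (SD, n = 2). IRS2, IGF1R and INSR followed at 0.741, 0.576 and 0.469 RPKM. No neighbours in this order overlapped between libraries. After auxin IGF2R still led at 3.67 ± 1.09 RPKM and IRS1 followed at 0.729 ± 0.0861 (SD, n = 2). The other 4 lay between 0.343 and 0.502 RPKM, where INSR overlapped IRS2, and GRB10 overlapped IGF1R. GRB10 thus went from the third to the fifth place. These 4 genes lay at 0.941 to 1.57 times the background after auxin, so their order there is uncertain.

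In HCT116 controls the docking adaptors stood higher. IRS1 led at 5.00 ± 0.0531 RPKM (SD, n = 2), and IRS2 at 2.11 ± 0.233 and IGF2R at 1.90 ± 0.115 overlapped. INSR at 0.453 and IGF1R at 0.442 RPKM also overlapped, and GRB10 was lowest at 0.322. In the libraries labelled TOP2B-/- IRS1 was still first at 2.11 ± 0.0169 RPKM, before IGF2R at 1.65 ± 0.0384 and IRS2 at 1.48 ± 0.0667 (SD, n = 2). GRB10, at 0.434 RPKM, now stood above IGF1R at 0.390 and INSR at 0.373. No neighbours overlapped in this group. The 2 cell lines were scaled in separate tables, so levels were not tested between them.

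**Figure D1:**
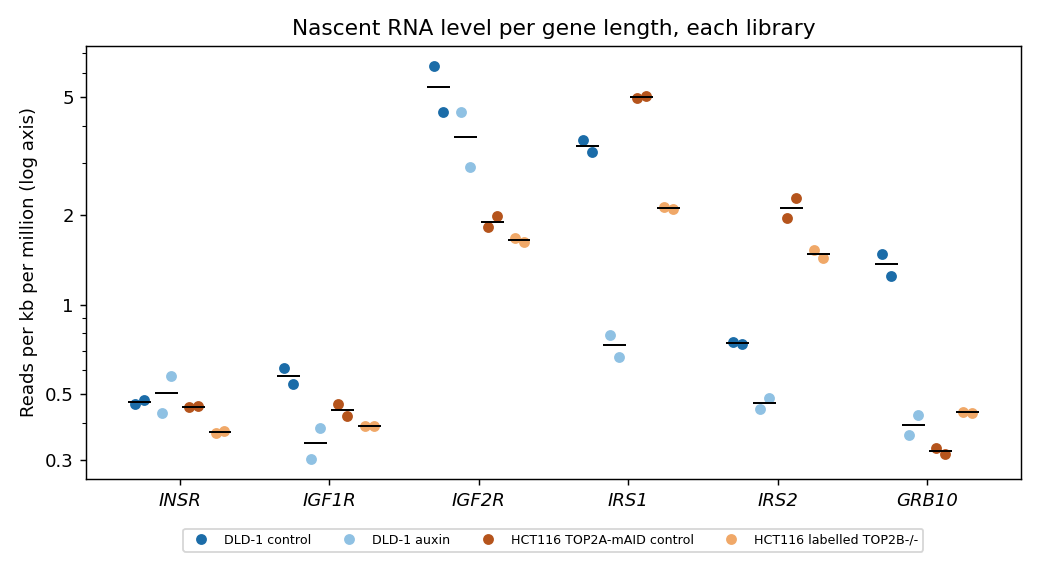
Level of each of the 6 genes in every library, in RPKM on a log axis. Points are single libraries and short lines the means of 2 libraries, in the 4 groups of DLD-1 and HCT116. IRS1 lies at 3.26 and 3.56 in DLD-1 controls and at 0.668 and 0.790 after auxin, while INSR stays between 0.370 and 0.573 in all 8 libraries.

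In DLD-1 the question was how nascent RNA of these genes changed once tagged RPB1 had been exposed to auxin. IRS1, GRB10, IGF1R and IRS2 were lower after auxin, in that order of size, while INSR and IGF2R were not called. These 4 of 6 stand beside 67.3% of the 17625 genes tested that were called at an edgeR adjusted p under 0.05, with 35.0% called lower and 32.2% called higher. A call by itself was therefore common in this comparison. The median log2 fold change of the 6 was -0.71, and that of all genes tested was -0.063. Genes near background enter the second median, and background took a larger part of the counts after auxin. The medians therefore do not compare like genes. Fewer transcribing cells and less RNA per cell cannot be told apart in these bulk libraries.

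Among the receptors, IGF1R had 193.0 and 170.9 CPM in the controls and 95.2 and 121.3 after auxin. Both auxin libraries lay below both controls, as they did for 46.3% of all genes tested. The log2 fold change of IGF1R was -0.75 (SE 0.19) with an adjusted p of 0.0287 by edgeR's quasi-likelihood test with Benjamini-Hochberg adjustment. The call was lost without control replicate 1 (-0.66), auxin replicate 1 (-0.49) or auxin replicate 2 (-0.94).

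IGF2R, which clears IGF2 from the cell surface, was the most abundant of the 6 in CPM as well. It went from 854.7 and 596.0 CPM to 596.0 and 389.9 after auxin, so the groups met. Replicate 2 minus replicate 1 was -0.52 in the controls and -0.61 after auxin on the log2 scale, close to the log2 fold change of -0.56 (SE 0.31, edgeR adjusted p = 0.165). With the replicate number as a block IGF2R was called lower, at -0.57 (SE 0.15, edgeR adjusted p = 0.0250).

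INSR, the insulin receptor, had 84.0 and 86.6 CPM in the controls and 78.4 and 104.2 after auxin. The auxin libraries lay on either side of the controls. Its log2 fold change was 0.10 (SE 0.20, edgeR adjusted p = 0.672), and it was -0.12 without auxin replicate 2.

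Of the docking adaptors, IRS1 moved most. It had 240.4 and 220.0 CPM in the controls and 53.3 and 45.1 after auxin, with the groups well apart. The log2 fold change was -2.23 (SE 0.18, edgeR adjusted p = 0.0042), and 3.93% of the genes tested had a lower value. The 4 pairings of an auxin with a control library gave -2.42 to -2.05. Among all gene models ranked by level per length, IRS1 went from percentiles 87.8 and 88.0 to 67.8 and 63.0.

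IRS2, the other docking adaptor, had 24.5 and 24.0 CPM in the controls and 14.6 and 15.8 after auxin. The groups did not overlap, and the log2 fold change was -0.67 (SE 0.21, edgeR adjusted p = 0.0420). This call was lost when any of the 4 libraries was left out, with values of -0.73 to -0.52.

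GRB10, the restraining adaptor, had 300.3 and 254.6 CPM in the controls and 73.9 and 86.5 after auxin. Both auxin libraries lay far below both controls. The log2 fold change was -1.79 (SE 0.19, edgeR adjusted p = 0.0045), with 8.98% of the genes tested lower than it. GRB10 and IRS1 were called in each of 13 alternative analyses, which reuse the same libraries. How many of all genes were called in every alternative was not counted, and 67.3% were called in the fit reported here.

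The background of the auxin libraries bears on the size of these changes. The interquartile range of the silent genes lay between 0.765 and 1.25 times the background there. IGF1R had 1.06 and 0.941 times the reads expected from background, GRB10 had 1.28 and 1.04, and IRS2 had 1.57 and 1.19. INSR had 1.52 and 1.41 times. The 90th percentile of the silent genes was 1.70 and 1.47 times, above all 4 of these genes in both auxin libraries. IRS1 had 2.77 and 1.64 times and IGF2R had 15.6 and 7.11. In the controls the same ratios were 4.98 or more for all 6 genes.

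With the background subtracted from the counts and the libraries scaled anew, the 6 genes spread further apart. IRS1 was at -1.86 (SE 0.14), IRS2 at -1.26 (SE 0.27) and GRB10 at -3.57 (SE 0.57), each called by edgeR. IGF1R was left with 92 and 0 reads after auxin, against 8985 and 4299 in the controls, so no size is given for it. INSR was at -0.0041 (SE 0.30). IGF2R turned to 0.61 (SE 0.17) with an edgeR adjusted p of 0.0410. Subtraction left 9610 and 4610 of its 10269 and 5364 reads after auxin. In the controls it left 41355 and 17817 of 41521 and 18210. The larger share was removed after auxin, so the upward turn came with the new scaling. With library totals alone in place of TMM, the median of all genes tested moved from -0.063 to 0.57 and calls went from 5678 higher and 6177 lower to 7544 higher and 3377 lower. IGF2R was then at 0.082, IGF1R at -0.10 and IRS2 at -0.032, none of them called, and INSR was called higher at 0.74. IRS1 at -1.59 and GRB10 at -1.15 were still called lower.

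**Figure D2:**
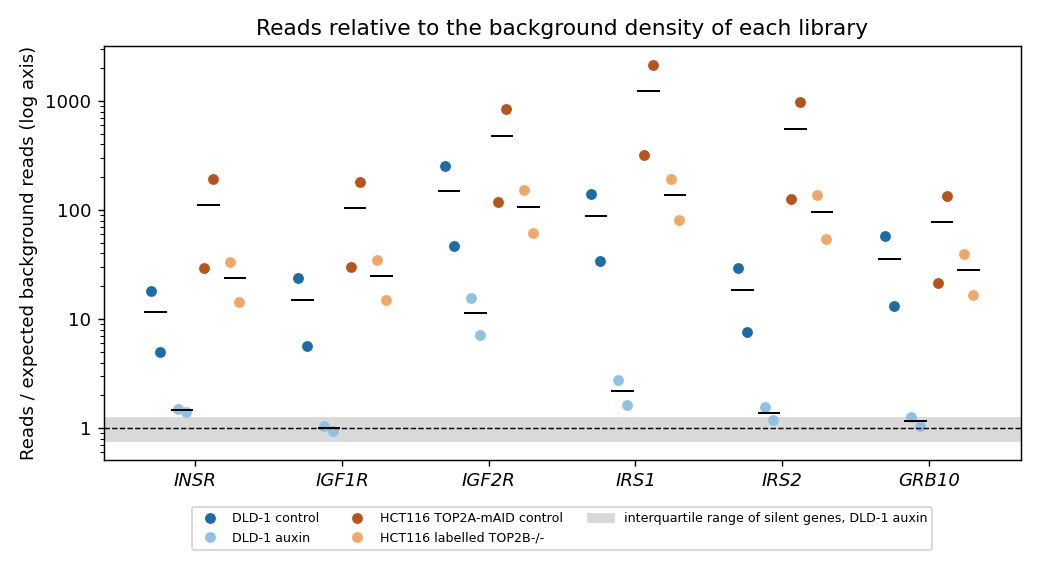
Reads of each gene divided by the reads expected from the background density of the library, on a log axis. Points are single libraries, short lines means of 2, and the grey band the interquartile range of silent genes in the DLD-1 auxin libraries, with the dashed line at 1. After auxin IGF1R and GRB10 lie at 0.941 to 1.28, in or at the edge of the band, and IGF2R at 7.11 and 15.6, well above it.

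In HCT116 the question was how the cells labelled TOP2B-/- differed from the TOP2A-mAID controls. IRS1 was lower and GRB10 higher in the libraries labelled TOP2B-/-, and INSR, IGF1R, IGF2R and IRS2 had negative log2 fold changes of smaller size than that of IRS1. By edgeR IRS1 and GRB10 were past the threshold, where 3.41% of the 15273 genes tested were called, 1.66% lower and 1.75% higher. The libraries labelled TOP2B-/- both lay below both controls in 5 of the 6 genes, as they did in 27.6% of all genes tested. No member lies on chromosome 20, where 133 of 405 tested genes were called lower and the median log2 fold change was -0.56.

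IRS1 had 334.6 and 339.7 CPM in the controls and 143.4 and 141.8 in the libraries labelled TOP2B-/-. The log2 fold change was -1.24 (SE 0.037), the 51st lowest of 15273. The controls differed from each other by 0.022 and the other libraries by -0.016, and the 4 pairings gave -1.26 to -1.22. Both libraries labelled TOP2B-/- lay below both controls.

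IRS2 moved the same way by a smaller step. It had 63.8 and 74.6 CPM in the controls and 49.9 and 46.8 in the libraries labelled TOP2B-/-, with a log2 fold change of -0.52 (SE 0.095). Its pairings ran from -0.67 to -0.35, wider than for IRS1, because the controls differed by 0.23.

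The receptors had the smallest differences. INSR had 82.0 and 82.8 CPM in the controls and 67.2 and 68.4 in the libraries labelled TOP2B-/-, a log2 fold change of -0.28 (SE 0.040). IGF1R had 145.7 and 133.7 against 122.8 and 123.5 CPM, at -0.18 (SE 0.057). IGF2R had 244.5 and 266.3 against 225.4 and 218.1 CPM, at -0.20 (SE 0.058). The groups did not overlap for any of the 3 receptors, and replicates differed by up to 0.12 on the log2 scale.

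GRB10 was the member with the opposite sign. It had 67.1 and 63.7 CPM in the controls and 88.7 and 87.9 in the libraries labelled TOP2B-/-, so the groups were apart. The log2 fold change was 0.43 (SE 0.047), with pairings of 0.39 to 0.48.

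Background was small beside these levels, as the 6 genes had 14.4 to 2147 times the background in the HCT116 libraries. The highest ratios came from control replicate 2, where the upper quartile of silent genes was itself 6.91 times their median. Subtraction left IRS1 at -1.21 (SE 0.060) and GRB10 at 0.45 (SE 0.068). The sign of each of the 6 genes was the same in all 14 alternative analyses. These reuse libraries in which the groups did not overlap for any of the 6, so the kept signs add no support. How many of all genes kept their sign was not counted. Calls over all genes depended on single libraries. Without replicate 1 or replicate 2 labelled TOP2B-/- edgeR called 0 genes in all, with 2266 of 15820 and 1286 of 15381 at an unadjusted p under 0.05. Without control replicate 1 it called 2519 of 15743, and DESeq2 on all 4 libraries called 1849 of 18041.

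**Figure D3:**
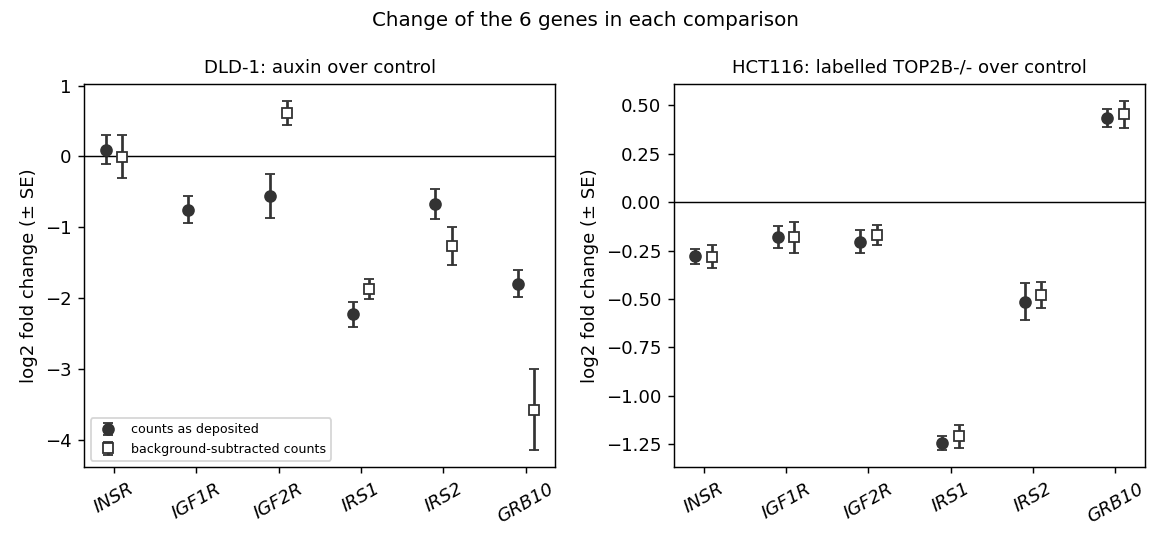
Log2 fold change of the 6 genes in DLD-1 (auxin over control) and HCT116 (labelled TOP2B-/- over control), as points with bars of ± 1 SE from edgeR. Filled circles are counts as deposited and open squares background-subtracted counts, and the y axes of the 2 panels differ. IGF2R changes sign in DLD-1, from -0.56 to 0.61, and GRB10 is at -1.79 in DLD-1 and 0.43 in HCT116. No open square is drawn for IGF1R in DLD-1.

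Ratios between members within a library do not depend on scaling between libraries. The ratio of IRS1 to IRS2 per length was 4.76 and 4.44 in DLD-1 controls and 1.77 and 1.38 after auxin. In HCT116 it was 2.55 and 2.21 for controls against 1.39 and 1.47 for the libraries labelled TOP2B-/-. IRS1 therefore stood above IRS2 in all 8 libraries, by less in the treated or edited group of each line. After background subtraction the ratios in DLD-1 were 4.89 and 4.96 against 3.13 and 3.44, a smaller gap. The auxin ratios rest on 91 and 34 reads of IRS2 left after subtraction, so whether the groups differ beyond background is uncertain.

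GRB10 relative to IGF1R, the receptor it binds, had a ratio of 2.42 and 2.31 in DLD-1 controls and 1.21 and 1.11 after auxin. After background subtraction it was 2.48 and 2.60 in the controls and 4.66 in auxin replicate 1, with no value for auxin replicate 2, so its direction in DLD-1 depended on background, where both genes lay after auxin. In HCT116 the ratio was 0.715 and 0.741 for controls against 1.12 and 1.11 for the libraries labelled TOP2B-/-, with 0.705 and 0.739 against 1.13 and 1.11 after subtraction. The ratio of INSR to IGF1R was 0.756 and 0.881 in DLD-1 controls and 1.43 and 1.49 after auxin, where IGF1R lay at background. In HCT116 it was 0.978 and 1.08 against 0.951 and 0.964, a change of the size of the spread between the controls.

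Across the 8 libraries, log2 CPM centred within each cell line gave a Pearson r of 0.96 between IRS1 and IRS2, the highest among the 6 genes. IRS1 and IGF1R had 0.88, and INSR had between -0.37 (with IGF2R) and 0.31 (with IRS2) with the other 5 genes. These values describe 8 points that share their libraries and depth. Among 15204 genes tested in both lines, those most like IRS1 were MAVS (r = 0.998), SQLE (0.997), CHMP4B (0.996), PI4K2A (0.996) and KIF3B (0.996). MAVS, CHMP4B and KIF3B lie on chromosome 20. Those most like IRS2 were GMEB2 (0.991), FAM83E (0.988), FAM110A (0.988), ZNF25 (0.987) and PDGFB (0.987), of which GMEB2 and FAM110A lie on chromosome 20.

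The rest of the pathway was followed in 55 further genes listed by function, of which 53 were in the tables. In DLD-1, 9 of the 52 tested were called higher and 30 lower by edgeR, where 32.2% of all genes tested were called higher and 35.0% lower. The median log2 fold change was -0.96 against -0.063 over all genes. The shares and the median over all genes include genes near background, so they are not a like reference. Calls are given by role. Of 8 ligands, binding proteins and the related receptor INSRR, 5 were higher and 0 lower, with a median of 1.89. Of these 5, IGF1, INSRR, IGFBP1 and IGFBP5 lay at 1.07 times the background or less in every DLD-1 library. IGFBP2 lay at 4.63 times or more. Of 10 other adaptors 2 were higher and 7 lower. Of 9 PI3 kinase and AKT genes 1 was higher and 4 lower, and of 11 attenuators 1 was higher and 8 lower. In the TSC and mTOR branch 8 of 9 were lower, and in the FOXO and GSK3 branch 3 of 5, with none higher in either. Without auxin replicate 1, 16 pathway genes were called, 15 of them lower, and without auxin replicate 2, 17 were called, 16 of them lower.

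The largest falls were those of TRIB3, a pseudokinase that binds AKT, GAB1, a docking protein, and PIK3CA, a catalytic subunit of PI3 kinase. TRIB3 had 134.8 and 121.5 CPM in DLD-1 controls and 5.22 and 7.20 after auxin, a log2 fold change of -4.37 (SE 0.24, edgeR adjusted p = 0.0042). GAB1 followed at -2.63 (SE 0.18) and PIK3CA at -2.11 (SE 0.16), with the same adjusted p. In the mTOR branch the largest fall was that of RICTOR, a subunit of mTOR complex 2, at -1.95 (SE 0.16). Among FOXO and GSK3 genes it was that of FOXO3, a forkhead factor restrained by AKT, at -1.79 (SE 0.18). After auxin TRIB3 lay at 1.08 and 1.04 times the background, GAB1 at 1.42 and 1.15, PIK3CA at 1.30 and 0.959, and FOXO3 at 1.43 and 1.15, so the sizes of these 4 falls are uncertain. RICTOR lay at 2.65 and 1.72 times.

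The largest rises were in genes with few reads. IRS4, an adaptor of the IRS family, had 0 and 3 reads in the controls and 16 and 9 after auxin, with a log2 fold change of 4.14 (SE 1.23, edgeR adjusted p = 0.0370). IGFBP1, an IGF-binding protein, had 5 and 11 reads in the controls and 22 and 28 after auxin, at 2.87 (SE 0.80, edgeR adjusted p = 0.0327). PIK3CD, the delta catalytic subunit of PI3 kinase, was at 2.82 (SE 0.49, edgeR adjusted p = 0.0120), with 120 and 177 reads against 448 and 442. All 3 lay at 1.26 times the background or less in each DLD-1 library. Of the 9 genes called higher, 6 in the controls and 7 after auxin lay within the upper quartile of silent genes in both libraries. With background-subtracted counts the calls were 3 higher and 18 lower.

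In HCT116, 1 of 48 pathway genes tested was called higher and 1 lower by edgeR, beside 1.75% and 1.66% of all genes tested, with a median log2 fold change of -0.0090 against 0.034 over all genes. NEDD4, a ubiquitin ligase that acts on IGF1R together with GRB10, rose from 85.4 and 84.3 to 112.6 and 115.3 CPM. Its log2 fold change was 0.42 (SE 0.040, edgeR adjusted p = 0.0307). PTPN1, a phosphatase that removes phosphate from the insulin receptor, fell from 294.4 and 319.1 to 184.9 and 181.2 CPM, at -0.74 (SE 0.055, edgeR adjusted p = 0.0254). PTPN1 lies on chromosome 20. Both calls were lost when either library labelled TOP2B-/- was left out, as were all other calls, so this loss is not particular to these genes.

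The other genes with the largest difference of their role in HCT116 were not called. INSRR was at 2.11 (SE 1.34), with group means of 0.148 and 0.647 CPM. GRB7, an adaptor related to GRB10, was at -0.79 (SE 0.15) and PIK3R1, a regulatory subunit of PI3 kinase, at 0.58 (SE 0.084). TRIB3, also on chromosome 20, was at -0.87 (SE 0.12). TSC2, an inhibitor of mTOR signalling, was at -0.42 (SE 0.16) and FOXO4 at -0.46 (SE 0.23). Their edgeR adjusted p ran from 0.0549 for TRIB3 to 0.433 for INSRR.

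**Figure D4:**
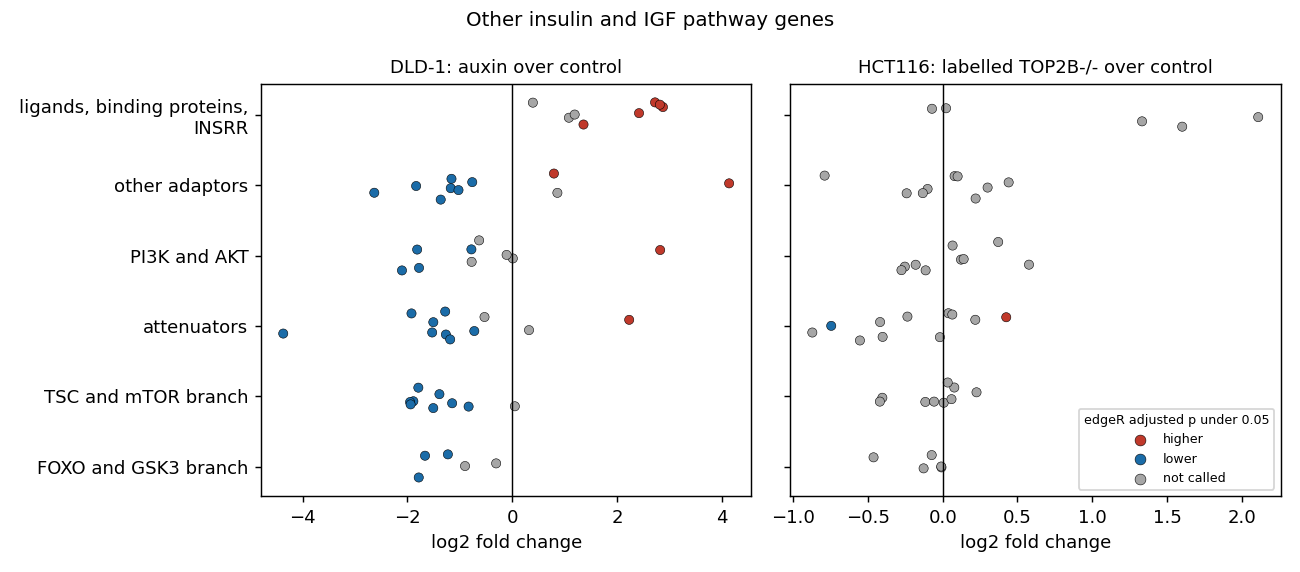
Log2 fold change of the other insulin and IGF pathway genes in rows by role, for DLD-1 and HCT116, with x axes of different range. Each point is a gene, red or blue where edgeR called it higher or lower and grey where it did not. In DLD-1, 30 genes are blue and 9 red, 5 of the red in the row of ligands and binding proteins. Of these 5, all but IGFBP2 lay at 1.07 times the background or less in every DLD-1 library. In HCT116 NEDD4 is red and PTPN1 blue.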

How the data were processed

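Per the labels, a TruSeq RNA kit was used on RNA from factory-seq. The authors deposited read counts per library in a table for each cell line, with RefSeq gene models as rows, and these raw counts over the whole span of each model are the unit used here. In 1443 models the counted length was below the span. The submitters' processing notes name STAR, DESeq2 and the build hg38, while versions, settings and the use of strand do not appear in the sources used here. The authors also deposited tables of changed genes, which hold fold changes, p-values and normalized values, and these were not used.

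Samples were grouped by title or genotype. Every value column of the count tables had a matching sample. The labels do not say that replicates came from separate cultures, so p-values measure the spread between these libraries, which may be technical. The members and lists were chosen with earlier results of these data known. The paper supplied describes another experiment, so its design was not used.

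Each comparison was fitted on its 4 libraries by edgeR 4.0.16 (R 4.3.3; quasi-likelihood test), with 2 residual degrees of freedom. Genes were kept by filterByExpr, libraries scaled by TMM, and two-sided p-values adjusted over all genes tested by the Benjamini-Hochberg method, with calls under 0.05. Standard errors come from the F statistic. Silent genes were the 20% of models, 5000 bp or longer, that had the fewest reads per kb in controls of the other line, ranked within chromosomes. Background subtraction removed their median density, with a floor of 0, and library sizes and TMM factors were then computed anew. Centred log2 CPM used a prior count of 2. Alternatives were DESeq2 1.42.0, other scalings and filters, each library left out, the replicate number as a block, all 8 libraries in a single fit, and background-subtracted counts. The fit was tested on simulated data. Named pathway genes were, within each comparison, the 3 called genes with the largest rise, the 3 with the largest fall and the gene with the largest change of each role. The 5 genes most like IRS1 and IRS2 were taken by Pearson r.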

Additional observations from a re-analysis of the deposited data

How the results depend on the processing

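Counts of calls depended more on the processing than directions did. In DLD-1, 4 of the 6 members were called as reported, against 2 with RLE scaling, upper-quartile scaling or a mean CPM of at least 5, and 2 to 3 with each library left out (2 without control replicate 1, auxin replicate 1 or auxin replicate 2). Pathway genes called numbered 39 as reported, 21 with background-subtracted counts and 16 to 42 with each library left out, the lowest without auxin replicate 1. All genes called numbered 11855, and 2393 to 12732 with each library left out. Directions turned for INSR without auxin replicate 2 (-0.12, with values up to 0.39 when another library was left out) and with background-subtracted counts (-0.0041), and for IGF2R with library totals (0.082) and background-subtracted counts (0.61). IRS2 was not called in 9 of 13 alternatives, with edgeR or DESeq2 adjusted p of 0.0239 to 0.900 over them, and IGF1R in 7 of 12.

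In HCT116, 2 of the 6 members were called as reported, 5 with DESeq2, 4 with a mean CPM of at least 5 or background-subtracted counts, 0 with all 8 libraries in a single fit and 0 to 5 with each library left out. Pathway genes called were 2 as reported, 6 with DESeq2 or a mean CPM of at least 5, 10 with background-subtracted counts, 0 with all 8 libraries and 0 to 8 with each library left out. All genes called were 521 as reported, 1849 with DESeq2, 1221 with a mean CPM of at least 5, 2357 with background-subtracted counts, 5 with all 8 libraries and 0 to 2519 with each library left out. Over 14 alternatives IRS1 lay at -1.30 to -1.20 and GRB10 at 0.33 to 0.47, and since the genes were picked from these values, their calls support nothing. The causes of these shifts were not tested.

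Replicate numbers are shared between groups, but only 2 numbers exist and nothing in the labels pairs them. Differences between replicates correlated between groups at 0.56 in DLD-1 and -0.82 in HCT116. With the replicate number as a block, 12963 genes and 5 members were called in DLD-1, IGF2R (-0.57) beside the 4 called without it. In HCT116 the block gave 0 members, 0 pathway genes and 0 genes in all by edgeR, with 2177 genes at an unadjusted p under 0.05. Crossed numbers, added after seeing the data, gave 4 members, 9 pathway genes and 1808 genes.

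With 2 libraries per group, spread is poorly known, and leaving out a library meant taking the spread of that comparison from the untouched group. Background made up 39.5% and 59.8% of counts in the DLD-1 auxin libraries, which limits the levels of IGF1R, GRB10, IRS2 and INSR there. The least count of a member was 218 reads, for IRS2 in auxin replicate 2. Background subtraction left 34 of these, and left GRB10 with 48 reads and IGF1R with 0 in the same library.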

Other observations

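The nearest gene models on either side of each member were listed with their values. RHBDD1, which encodes a rhomboid-like protease and lies 37164 bp from IRS1, had 361.0 and 332.7 CPM in HCT116 controls and 361.2 and 351.2 in the libraries labelled TOP2B-/-, a log2 fold change of 0.038 beside -1.24 for IRS1. In DLD-1 it was lower after auxin at -1.52 with an edgeR adjusted p of 0.0070. COBL, the neighbour of GRB10 at 222749 bp, had a log2 fold change of 0.022 in HCT116, with 133.2 and 124.9 CPM in the controls against 134.2 and 127.8, beside 0.43 for GRB10. ARHGEF18, the neighbour of INSR at 101112 bp, was at -0.38 in HCT116 and -0.90 in DLD-1, and only the DLD-1 value was called by edgeR (adjusted p = 0.0162).

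Some other neighbours had higher values in DLD-1 after auxin. FAM169B and PGPEP1L beside IGF1R, MAS1 beside IGF2R, MYO16 beside IRS2 and DDC beside GRB10 were called higher by edgeR in DLD-1, at 2.46, 2.95, 3.88, 2.31 and 2.46. These genes had between 0.0655 CPM (MAS1) and 44.8 CPM (MYO16) in the DLD-1 controls. Their reads were not set against the background of each library, so whether these rises go beyond background was not tested. For scale, IGF1 lay at 0.950 times the background or less in every DLD-1 library, and its log2 fold change was 2.72.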
